A study of Mus musculus with 3 samples.

Results

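The genes described here were 42 mouse genes of transforming growth factor beta (TGF-β) and bone morphogenetic protein (BMP) signalling, out of 22367 protein-coding genes. They were 10 ligands, 13 receptors and co-receptors, 8 Smad proteins, 5 proteins of ligand latency and processing, 4 intracellular inhibitors and 2 secreted antagonists. They were chosen by name and role, with earlier results of these data known. Each was followed over its gene body and the 5 kb upstream of its outermost annotated start. NFI binding was mapped by ChIP-Seq with an antibody against the whole Nuclear Factor I (NFI) group of transcription factors, in mouse embryonic fibroblasts (MEFs) of C57BL/6 embryos of 14.5 days at passages 6 to 7. The 3 libraries were NFI ChIP from wild-type MEFs, NFI ChIP from MEFs in which NFI-C had been knocked out by insertional mutagenesis, and input DNA of wild-type MEFs without antibody. Each condition had 1 library, so no difference had a replicate check, and all intervals below are 95% intervals that cover counting error only.

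TGF-β, activin and BMP ligands are secreted dimers that bring type I and type II receptor kinases together at the cell surface. The activated type I receptor phosphorylates receptor Smads, which enter the nucleus with the common partner Smad4 and act on target genes. Inhibitory Smads, the corepressors Ski and Skil, the ubiquitin ligases Smurf1 and Smurf2, and secreted antagonists such as Nog hold the pathway in check. In fibroblasts this pathway is known for its control of matrix production and myofibroblast differentiation. NFI proteins bind as dimers to a palindrome whose arms read TTGGCA and, on the other side of a 3 bp spacer, TGCCAA.

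The libraries held 14358325 wild-type ChIP reads, 16330049 knock-out ChIP reads and 12029975 input reads. Counting 1 unique tag per position and strand left 3350071, 3132004 and 4100449 tags, so the genome average was 0.393, 0.367 and 0.481 tags per 300 bp. Each distinct tag was read 2.92, 3.45 and 1.32 times, a difference between ChIP and input whose part in the results was not tested. The title of the knock-out library was followed, although its description line names wild-type cells. The targeted gene Nfic held 57 wild-type ChIP tags, 74 knock-out ChIP tags and 172 input tags over 39.8 kb. Such tags come from genomic DNA and cannot check the label of an insertional knock-out. Wherever 3 tag counts stand together below, they are given in the order of wild-type ChIP, knock-out ChIP, input.

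The NFI palindrome lay within 150 bp of 4 of the 105 deposited in vivo sites of the genes. The match nearest to each site is printed with 20 bp on either side to show how the letters of the motif occur there, and the Tgfbr3 window held a further match with 2 mismatches. All sequences are from the plus strand of mm9, and capitals mark the bases that match the palindrome TTGGCANNNTGCCAA, where N is any base.
Acvr2b chr9:119335856-119335910: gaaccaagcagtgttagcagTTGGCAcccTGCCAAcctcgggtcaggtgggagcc
Tgfbr3 chr5:107555631-107555685: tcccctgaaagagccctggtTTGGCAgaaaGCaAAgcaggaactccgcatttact
Smad3 chr9:63553714-63553768: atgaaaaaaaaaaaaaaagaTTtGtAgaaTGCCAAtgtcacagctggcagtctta
Ltbp1 chr17:75603049-75603103: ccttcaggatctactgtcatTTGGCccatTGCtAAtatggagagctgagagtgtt
The match in Acvr2b, an activin type II receptor, had 0 mismatches at the 12 fixed positions and was among only 159 exact matches in the genome. Its site held 4 wild-type ChIP tags, 2 knock-out ChIP tags and 1 input tags in 300 bp. The other 3 matches printed had 2 mismatches. The site in Tgfbr3, the betaglycan co-receptor, held 4, 1 and 0 tags, the site in Smad3 held 3, 0 and 0, and the site in Ltbp1, a latent TGF-β binding protein, held 3, 1 and 1. A further match, in an intron of the corepressor gene Ski, is shown because it held the most wild-type ChIP tags of all 147 matches in the genes, and it was chosen after its values were seen.
Ski chr4:154547773-154547827: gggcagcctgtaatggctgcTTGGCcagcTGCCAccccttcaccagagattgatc
It had 2 mismatches and held 11 wild-type ChIP tags, 2 knock-out ChIP tags and 3 input tags, and it lay 166 bp from the nearest deposited site.

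Other sites with many tags, the Ski site nearest to the match above included, had no palindrome within 150 bp. The 300 bp at 3 of them are printed here, with the deposited 16 bp interval in capitals, and neither TTGGCA nor its complement TGCCAA occurs in these windows.
Bmp5 chr9:75659444-75659743: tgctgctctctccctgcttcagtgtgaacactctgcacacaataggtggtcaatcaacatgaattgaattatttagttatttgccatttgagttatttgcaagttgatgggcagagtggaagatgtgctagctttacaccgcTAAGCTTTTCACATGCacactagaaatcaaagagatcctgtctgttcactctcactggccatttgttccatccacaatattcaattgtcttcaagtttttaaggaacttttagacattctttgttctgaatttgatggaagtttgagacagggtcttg
Tgfbr1 chr4:47419656-47419955: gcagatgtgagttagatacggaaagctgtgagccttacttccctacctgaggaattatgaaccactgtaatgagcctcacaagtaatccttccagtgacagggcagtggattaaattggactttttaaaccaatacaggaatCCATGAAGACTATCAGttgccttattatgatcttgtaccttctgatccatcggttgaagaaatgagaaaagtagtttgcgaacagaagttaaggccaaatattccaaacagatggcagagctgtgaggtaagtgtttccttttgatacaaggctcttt
Bmp6 chr13:38502274-38502573: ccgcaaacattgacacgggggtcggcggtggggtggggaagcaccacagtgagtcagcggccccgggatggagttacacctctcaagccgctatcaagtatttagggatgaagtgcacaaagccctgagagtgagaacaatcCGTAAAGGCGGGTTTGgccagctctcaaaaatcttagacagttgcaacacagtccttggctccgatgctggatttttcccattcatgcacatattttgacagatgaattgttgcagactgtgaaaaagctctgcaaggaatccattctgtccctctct
The intronic site of Bmp5 and the site at a coding exon of Tgfbr1, the TGF-β type I receptor, each held 6 wild-type ChIP tags and 0 knock-out ChIP and 0 input tags. The intronic site of Bmp6 held 5, 8 and 0 tags. It was shown because ties in wild-type tags were broken by more knock-out tags, so its knock-out count was part of the choice. Another intronic site of Bmp6 held 5, 0 and 0. The 150 bp before the start of Ltbp3 are printed because a deposited site lay 52 bp upstream of that start, again in capitals, and TTGGCA occurs inside it.
Ltbp3 chr19:5740754-5740903: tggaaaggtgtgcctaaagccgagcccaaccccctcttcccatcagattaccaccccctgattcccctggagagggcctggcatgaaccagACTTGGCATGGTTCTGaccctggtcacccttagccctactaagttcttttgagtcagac
That site held 3 wild-type ChIP tags, 3 knock-out ChIP tags and 0 input tags. A match of letters describes the sequence and does not show that NFI bound there.

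At least 1 deposited in vivo site lay in 30 of the 42 genes (71.4%), while 41.9% of all protein-coding genes held such a site. The sites had been called by the authors on the wild-type ChIP. The genes were also longer, with a median of 67.9 kb against 20.4 kb, so sites were counted per length. The 105 sites of the genes came to 3.06 per 100 kb (2.501 to 3.70), against 2.10 per 100 kb over all protein-coding genes. Per 1000 wild-type ChIP tags there were 17.4 sites in these genes and 14.4 in all genes. No interval was computed for these 2 values, so their difference was not set against counting error. Smad3 and Smad7 weighed on the density, which was 2.65 per 100 kb (2.12 to 3.27) without them. Ltbp1 held the most sites, and the density was 2.96 per 100 kb (2.38 to 3.64) without it. A site lay in the 5 kb upstream of 8 of the 42 genes (19.05%), beside 11.8% of all genes.

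**Figure D1:**
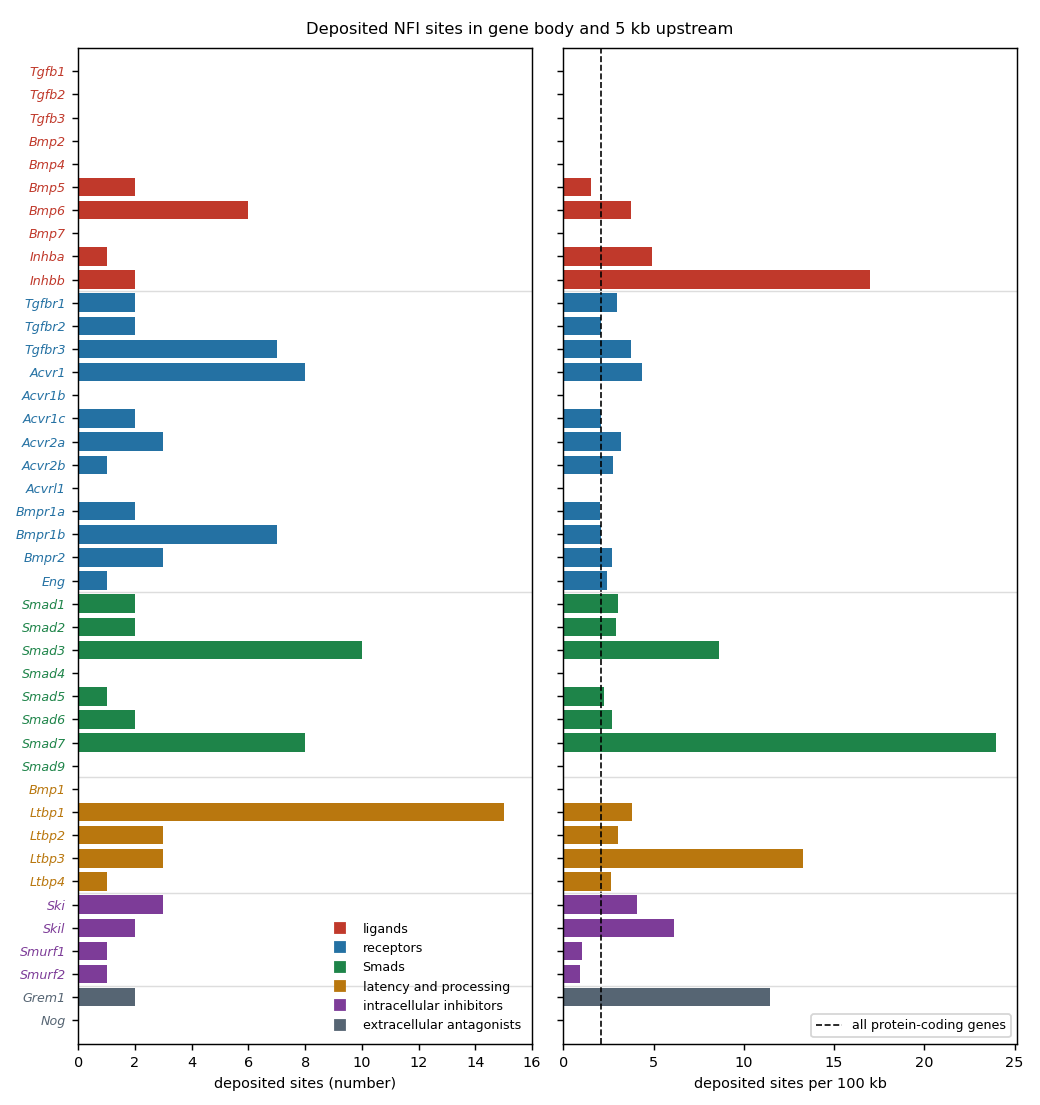
Number of deposited NFI sites (left) and sites per 100 kb (right) over gene body and 5 kb upstream, for each of the 42 genes coloured by role. The dashed line is the density over all protein-coding genes, 2.10 per 100 kb. Ltbp1 has the most sites, 15, and Smad7 the highest density, 23.9 per 100 kb.

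Among the ligands, 4 of 10 held a site, beside 41.9% of all genes, and their 11 sites came to 1.94 per 100 kb (0.971 to 3.48). The TGF-β ligands Tgfb1, Tgfb2 and Tgfb3 and the BMP ligands Bmp2, Bmp4 and Bmp7 held none. Bmp6 (chr13:38436995-38592183 in mm9) held 6 sites in its introns, with 275 wild-type ChIP tags, 270 knock-out ChIP tags and 342 input tags over 160 kb. Bmp5 held 2 intronic sites, with 189, 186 and 198 tags over the gene. Inhba, which encodes the activin βA subunit, had 1 site 4440 bp upstream of its start with 2 wild-type ChIP tags, 1 knock-out ChIP tags and 0 input tags, and 36, 43 and 61 tags over the gene. Inhbb, the activin βB subunit, had a site 1496 bp upstream with 2, 2 and 0 tags and a site in its untranslated region with 3, 2 and 15 tags. The latter was richer in input DNA than in either ChIP. Over the whole of Inhbb the libraries held 29, 28 and 85 tags.

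Receptor genes held a site in 11 of 13 cases, with 38 sites or 2.69 per 100 kb (1.90 to 3.69). They were longer than the ligand genes, with a median of 95.4 kb against 25.2 kb, and the density intervals of these roles overlapped. Only Acvr1b, the activin type I receptor, and Acvrl1, a type I receptor of endothelial cells, held none. Acvr1 (chr2:58241055-58419568), a BMP type I receptor, held 8 sites over 184 kb and 339 wild-type ChIP tags, 296 knock-out ChIP tags and 343 input tags. Its upstream site, 3584 bp before the start, held 3, 0 and 1 tags and also lay within the neighbouring gene Upp2. Tgfbr3 held 7 sites with 369, 336 and 434 tags over the gene, and Bmpr1b, another BMP type I receptor, 7 sites with 564, 524 and 591 tags. Bmpr1b was long, so its density was only 2.08 per 100 kb. Bmpr2, the BMP type II receptor, had 3 intronic sites and 235, 155 and 230 tags. Acvr2a, an activin type II receptor, had 3 sites and 155, 151 and 215 tags, and Acvr2b had 1 site and 57, 61 and 120 tags.

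Tgfbr1 and Tgfbr2, the TGF-β receptor kinases, had 2 sites each. Tgfbr1 held 106 wild-type ChIP tags, 99 knock-out ChIP tags and 146 input tags, and its upstream site at 4301 bp held 3, 1 and 0. Tgfbr2 held 152, 193 and 263 tags, and an intronic site of this gene held 3, 6 and 0. Acvr1c, the receptor also called ALK7, held 133, 123 and 151 tags, and of its 2 sites the upstream site at 1706 bp held 5, 0 and 0. Of the 11 sites before an outermost start, this had the widest gap between the wild-type ChIP and the other libraries. Bmpr1a, a BMP type I receptor, had 2 sites and 171, 141 and 231 tags, and Eng, the co-receptor endoglin, had 1 site and 62, 70 and 86 tags.

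The Smad genes had the highest density among the roles with more than 2 genes, with 25 sites in 6 of 8 genes, or 4.77 per 100 kb (3.09 to 7.05). Of these sites 18 lay in Smad3 and Smad7, and the rank rests on them. No other Smad gene exceeded the 3.02 per 100 kb of Smad1, which is below the 3.66 of the latency genes. Smad3 (chr9:63494574-63605801), a receptor Smad of the TGF-β and activin branch, held 10 intronic sites, or 8.60 per 100 kb (4.13 to 15.8), spaced by a median of 11530 bp. Smad7, the inhibitory Smad that is itself a TGF-β target, held 8 sites in only 33.4 kb, or 23.9 per 100 kb (10.3 to 47.2), spaced by a median of 2917 bp. At least as many sites as in Smad7 were held by 2.30% of all genes. Smad3 held 247 wild-type ChIP tags, 288 knock-out ChIP tags and 327 input tags, and Smad7 held 109, 86 and 154.

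Smad7 had 3 upstream sites. In the order wild-type ChIP, knock-out and input, the site at 4880 bp held 3, 0 and 1 tags, the site at 4094 bp 5, 6 and 1, and the site at 1177 bp 3, 1 and 9. The nearest site thus lay in a window with more input tags than ChIP tags, and at the middle site the knock-out ChIP held about as many tags as the wild-type ChIP. An intronic Smad7 site 21328 bp into the gene held 5, 1 and 1 tags. In Smad3, a site 66 bp before an internal annotated start held 5, 0 and 0 tags, while another intronic site held 3, 8 and 1. The remaining Smad genes held few sites. Smad1 (2 sites) held 99, 128 and 168 tags, Smad2 (2 sites) 130, 108 and 169, Smad5 (1 site) 69, 65 and 101, and Smad6 (2 sites) 145, 160 and 247. No site lay in Smad4, the common partner Smad, or in Smad9.

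**Figure D2:**
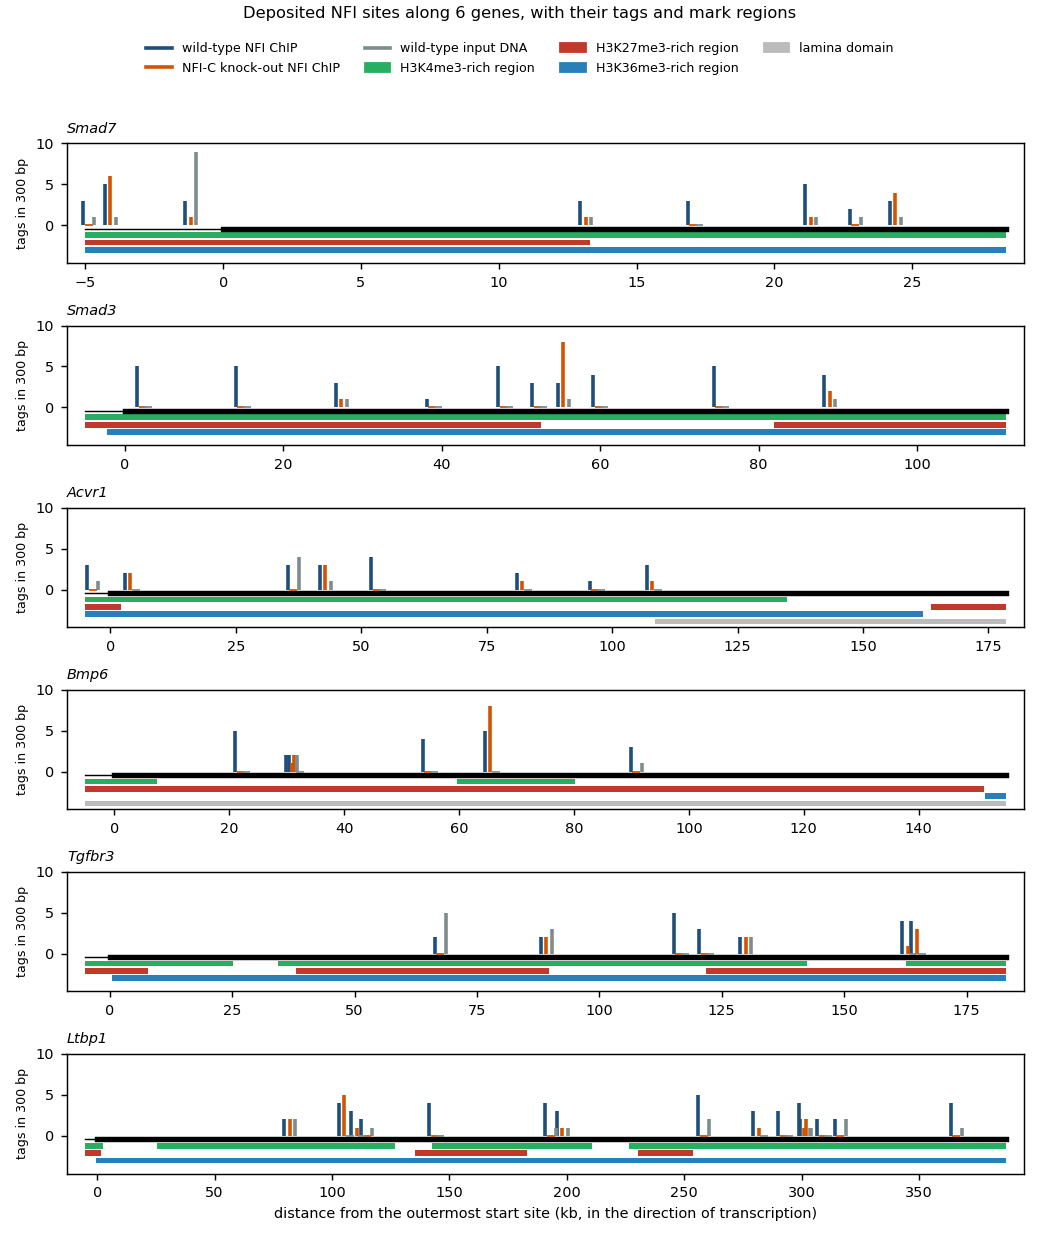
Deposited sites along 6 of the genes by distance from the outermost start (kb). Vertical bars are tags in the 300 bp at each site for the 3 libraries, the black line is the gene body, and coloured bands are regions rich in H3K4me3, H3K27me3 or H3K36me3 and lamina domains. Smad7 shows 8 sites in 33.4 kb, and at the Smad7 site 1177 bp upstream the input reaches 9 tags.

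Among the genes of latency and processing, 4 of 5 held a site, with 22 sites or 3.66 per 100 kb (2.29 to 5.54). Ltbp1 (chr17:75404908-75791852 in mm9), which holds TGF-β in the extracellular matrix, had 15 intronic sites over 391.9 kb and 758 wild-type ChIP tags, 639 knock-out ChIP tags and 800 input tags. An Ltbp1 site held 4, 5 and 0 tags. Ltbp2 had 3 sites and 167, 162 and 267 tags. Ltbp3 had 3 sites within 23 kb and 56, 58 and 129 tags. Besides the site 52 bp upstream, a site at 1349 bp held 2, 0 and 0 tags, and a site in the untranslated region held 5, 2 and 20. Ltbp4 had 1 intronic site with 4, 0 and 9 tags, and 51, 55 and 149 tags over the gene. The sites of Ltbp3 and Ltbp4 with 20 and 9 input tags, like those of Inhbb and Smad7 with 15 and 9, were windows where input DNA held more tags than either ChIP library. Bmp1, a protease that processes matrix proteins and the antagonist chordin, held no site.

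All 4 intracellular inhibitors, with a median of 83.9 kb, held a site, with 7 sites or 2.29 per 100 kb (0.920 to 4.71). Ski had 3 sites and 148 wild-type ChIP tags, 154 knock-out ChIP tags and 249 input tags, and its strongest site held 5, 3 and 2. Skil had 2 sites and 63, 43 and 99 tags. Smurf1 had 1 site and 156, 168 and 243 tags, and Smurf2 had 1 site and 189, 139 and 199. Of the secreted BMP antagonists, Grem1 had 2 sites and 29, 16 and 52 tags, with 3, 0 and 1 tags at the site 1721 bp upstream. Nog, which encodes noggin, had no site.

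The knock-out ChIP and the input had not been used to choose the sites, so they can be compared there. Over the 105 sites there were 343 wild-type ChIP tags, 96 knock-out ChIP tags and 124 input tags in 300 bp windows, with medians of 3, 0 and 0. The scaled ratio of knock-out ChIP to input was 1.01 (0.768 to 1.33), an interval that held 1, against 1.04 at the sites of all protein-coding genes and 1.12 at all deposited sites. This ratio depended on a few windows rich in input. Without the untranslated region sites of Inhbb and Ltbp3 it was 1.35 (1.00 to 1.83), but these were the sites with the most input tags and were picked after their values were seen, so the ratio had to rise. Over the 100 sites with fewer than 5 input tags it was 1.81 (1.30 to 2.52), and the same selection gave 1.42 (1.40 to 1.45) at all deposited sites. Because that selection uses the input itself, it lowers the denominator. None of these ratios at sites was corrected for G and C content. Over the whole genes that correction turned knock-out ChIP over input from 0.907 to 1.07, as given below.

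At single sites of the pathway genes the knock-out ChIP held 0 tags in 63 of 105 windows (60%), beside 58.3% of all deposited sites. The input held 0 tags in 55 of the 105 windows, and at 21337 of all 39807 deposited sites. With genome averages of 0.367 and 0.481 tags per 300 bp, an empty window alone does not show lost binding. A count of 0 allows up to 3 tags. At 5 of the 105 sites (4.76%) the knock-out ChIP held at least 5 tags, beside 1.81% of all deposited sites. The input also held at least 5 tags at 5 of the 105 sites (4.76%), beside 2.03% of all deposited sites. In windows of 600 bp with shifted tags, a setting chosen after seeing the data, it held at least 5 tags at 11 sites (10.5%), beside 6.39% of all deposited sites, and the input at 7 (6.67%), beside 4.72%. The 5 sites with at least 5 knock-out tags in 300 bp windows lay in Bmp6, Tgfbr2, Smad3, Smad7 and Ltbp1, and were named after their values were seen. At each of them the knock-out ChIP held at least as many tags as the wild-type ChIP. Wild-type counts at the 105 sites had a median of 3 and a maximum of 6. Picking sites by at least 5 knock-out tags thus nearly fixed this outcome, and nothing is concluded from it.

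Most sites lay in introns. Introns held 83 of the 105 sites (79.0%) and 87.7% of the bases, the 5 kb upstream held 11 (10.5%) and 6.12% of the bases, coding exons held 3 and other exons 8. Over all protein-coding genes the 5 kb upstream held 12.03% of sites and 9.91% of bases.

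The palindrome with at most 2 mismatches occurred 147 times in the genes, or 4.28 times per 100 kb (3.62 to 5.03), beside 4.18 in all genes. Summed over the 300 bp windows of these matches there were 138 wild-type ChIP tags, 96 knock-out ChIP tags and 100 input tags. Some windows overlapped, so some tags were counted more than once, which the intervals do not allow for. The Ski match printed above gave 11 of the wild-type ChIP tags. No correction for G and C content was made here. The scaled ratio to input was 1.69 (1.30 to 2.21) for the wild-type ChIP and 1.26 (0.940 to 1.68) for the knock-out ChIP. Over the 105791 matches of the genome the ratios were 1.27 and 1.29. A match lay within 150 bp of 3.81% of the sites of these genes and of 3.13% of all deposited sites. A single arm, TTGGCA on either strand, occurred in 22 of the 105 windows (21.0%) at the sites, and in 22 again 2000 bp to either side. At all deposited sites it occurred in 18.6% of windows, against 14.8% and 14.4% at the flanks.

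Chromatin regions came from the boundary files that the authors had made from published MEF histone data and from lamina domains mapped in human fibroblasts and carried over to the mouse genome. H3K4me3, a mark of active promoters, covered the start of all 42 genes, beside 63.2% of all protein-coding genes. H3K27me3, a mark laid down by Polycomb complexes, covered the start of 40, beside 70.5%. The exceptions were Eng and Smurf1. H3K36me3, which follows transcription through gene bodies, covered the start of 19, beside 37.3%, and overlapped 37 genes at any position, beside 57.7%. The deposited regions were broad, and 40 of the 42 starts lay in both H3K4me3 and H3K27me3 regions, beside 54.65% of all genes.

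Lamina domains, which mark chromatin at the nuclear envelope, overlapped 10 genes, beside 21.1% of all genes. These were the ligands Bmp2, Bmp4, Bmp6 and Bmp7, the receptors Acvr1, Acvr1c, Acvr2a, Acvr2b and Bmpr1b, and the antagonist Nog. None of the 8 Smad genes, 5 latency genes or 4 intracellular inhibitors overlapped a lamina domain, while all 17 of them overlapped an H3K36me3 region. Among receptors 12 of 13 overlapped one. Over the start site alone, H3K36me3 regions lay in 40% of ligands, 38.5% of receptors and 37.5% of Smads, beside 37.3% of all genes, and no test was made between roles. Genes without H3K36me3 were Bmp2, Bmp5, Bmp7, Acvr1c and Nog. Smad7 and Smad3 lay entirely in H3K4me3 regions, and H3K36me3 regions covered 100% and 97.6% of them. H3K27me3 regions covered 54.8% of Smad7 and 74.6% of Smad3, the starts included. Bmp6 was covered to 97.6% by H3K27me3 regions and to 100% by a lamina domain, with 20.6% in H3K4me3 regions.

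At the sites themselves, 90 of 105 (85.7%) lay in an H3K4me3 region, which covered 70.3% of the bases of the genes. H3K36me3 regions held 88 (83.8%) and 73.2% of the bases, H3K27me3 regions 48 (45.7%) and 45.1%, and lamina domains 12 (11.4%) and 16.6%. Over all protein-coding genes, 55.3% of sites and 31.4% of bases lay in H3K4me3 regions, 59.1% and 42.8% in H3K36me3 regions, 53.6% and 44.1% in H3K27me3 regions, and 23.0% and 29.0% in lamina domains. All 6 sites of Bmp6 lay in H3K27me3 regions and a lamina domain. H3K27me3 regions also held 7 of the 10 Smad3 sites and 4 of the 8 Smad7 sites, and no Smad site lay in a lamina domain.

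Over gene body and 5 kb upstream the 42 genes held 6019 wild-type ChIP tags, 5600 knock-out ChIP tags and 8085 input tags. The scaled ratio of wild-type ChIP to input was 0.911 (0.881 to 0.942), against 0.905 over all protein-coding genes. The input held more tags where G and C content was high, and when expected tags were set by G and C content the ratio became 1.10 (1.06 to 1.14), against 0.998 over all genes. By role the scaled ratio was 0.795 (0.728 to 0.867) in ligands, 1.02 (0.963 to 1.07) in receptors and 0.862 (0.794 to 0.935) in Smads. Corrected for G and C content, these ratios were 1.01, 1.09 and 1.16. Smads over receptors went from 0.848 (0.770 to 0.934) to 1.07 (0.968 to 1.17), an interval that holds 1, so these roles could not be told apart after the correction.

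A gene was called when its ratio was at least 1.2-fold in either direction and its interval left out 1. Longer genes hold more tags and have narrower intervals, and the 42 genes had a median of 67.9 kb against 20.4 kb. The shares of all genes given beside calls, here and below, were not matched for length. Acvr1 (1.21, 1.04 to 1.41) and Bmpr2 (1.25, 1.04 to 1.51) were called higher in the wild-type ChIP than in input, 2 of 42 beside 3.43% of the 21987 genes tested. Shares after correction and under other settings are of all 22367 genes, over which the same share is 3.371%. Acvrl1 had a ratio of 1.26 (0.783 to 2.02) from 39 wild-type ChIP and 38 input tags, with 26 in the knock-out ChIP, and was not called. There were 17 genes called lower, beside 25.1% of all genes. They comprised 6 of 10 ligands, 4 of 5 latency genes, and Tgfbr2, Acvr2b, Smad1, Smad6, Ski, Smurf1 and Nog. The lowest ratios among genes with at least 30 tags in both libraries were 0.419 in Ltbp4, 0.518 in Tgfb1 and 0.531 in Ltbp3. Tgfb1 held 33 wild-type ChIP tags, 35 knock-out ChIP tags and 78 input tags.

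Correction for G and C content changed most of these calls. It left 3 genes lower, namely Tgfb2 (0.776), Bmp4 (0.353) and Tgfbr2 (0.795), beside 6.715% of all genes. It gave 9 genes higher, beside 5.226%, which were Inhbb, Acvr1, Acvrl1, Bmpr2, Smad3, Smad4, Smad7, Ltbp3 and Skil. Smad7 moved from 0.866 to 1.76 (1.37 to 2.27), Acvrl1 from 1.26 to 2.07 (1.29 to 3.33) and Ltbp3 from 0.531 to 1.43 (1.02 to 1.97). Only Acvr1 and Bmpr2 were called higher both ways, and Acvr1 fell short of the fold without run 2 of the wild-type ChIP (1.18), with every unique tag counted (1.193) and without tags at deposited sites (1.191). In the 5 kb upstream alone, the genes held 400 wild-type ChIP and 801 input tags, a scaled ratio of 0.611 (0.541 to 0.690) that became 1.198 (1.06 to 1.35) with the correction. Over all protein-coding genes the upstream ratio was 0.717 before and 0.954 after it. In the nearest 1 kb upstream, which was not corrected, the pathway genes held 86 wild-type ChIP and 421 input tags, a ratio of 0.250 (0.196 to 0.316), beside 0.432 (0.427 to 0.437) over all protein-coding genes.

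**Figure D3:**
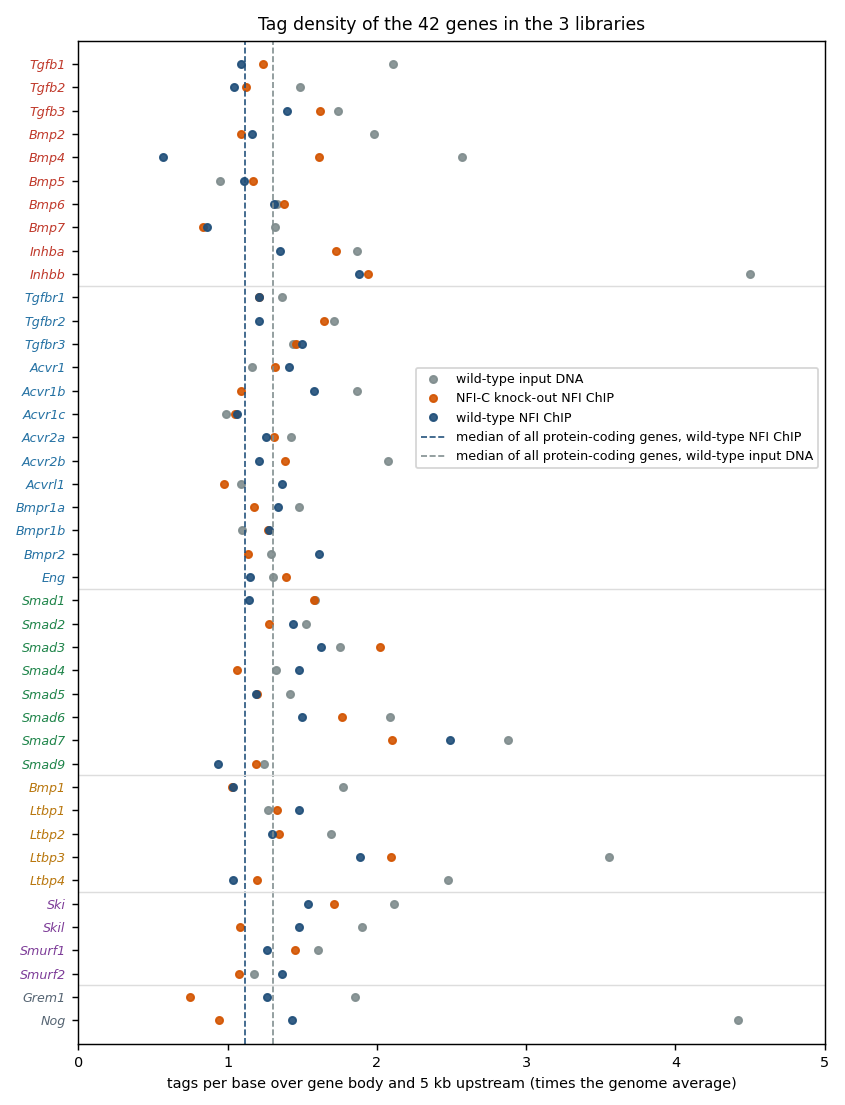
Tags per base over gene body and 5 kb upstream in each of the 3 libraries, as multiples of the genome average, for the 42 genes coloured by role. Dashed lines are medians of all protein-coding genes. Input DNA exceeds both ChIP libraries in 29 of the 42 genes, a share that was not counted over all genes. The medians over all protein-coding genes are likewise highest in input, 1.30 against 1.12 in each ChIP library. Among the 42 genes input is highest in Inhbb and Nog, with 4.50 and 4.42 times the genome average.

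**Figure D4:**
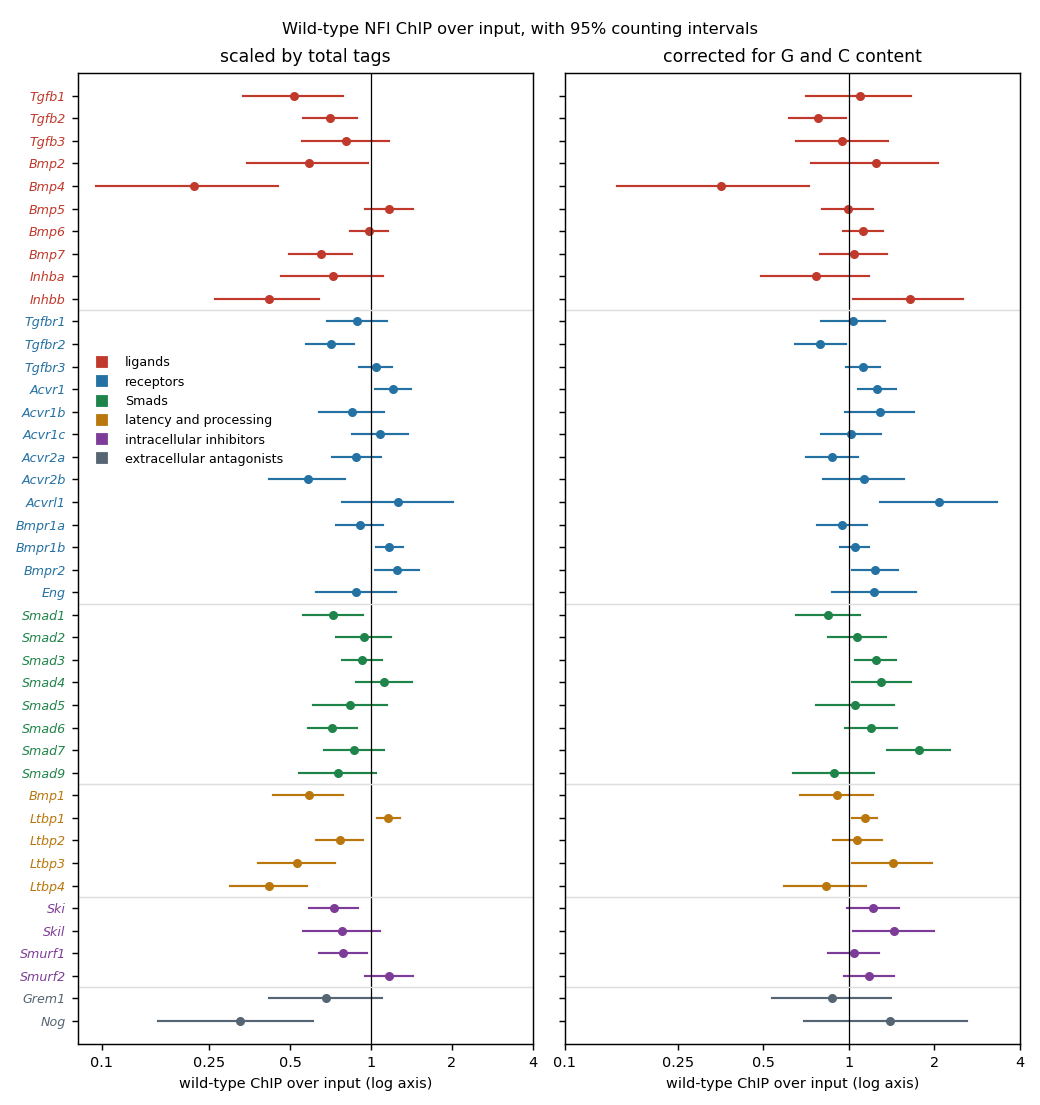
Ratio of wild-type NFI ChIP to input for each gene with 95% counting intervals on a log axis, scaled by total tags (left) and corrected for G and C content (right). Smad7 moves from 0.866 to 1.76 and Bmp4 stays low, at 0.220 and 0.353.

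The knock-out ChIP was compared with the wild-type ChIP over the same regions. The ratio over the 42 genes was 0.995 (0.959 to 1.03), against 1.00 over all protein-coding genes. It called 4 genes higher in the knock-out, beside 5.4% of all genes, and 4 lower, beside 4.61%. The higher genes were Bmp4 with 9 wild-type and 24 knock-out tags (2.85, 1.28 to 6.97), Smad1 with 99 and 128 (1.38, 1.06 to 1.82), Tgfbr2 with 152 and 193 (1.36, 1.09 to 1.69) and Smad3 with 247 and 288 (1.25, 1.05 to 1.48). In Bmp4, 15 of the 24 knock-out tags and 3 of the 9 wild-type tags lay in the 5 kb upstream. With the gene body alone it was not called (1.60, 0.510 to 5.48), and its ratio was 5.23 without run 3 of the wild-type ChIP and 7.16 with every unique tag counted. Inhba, with 36 and 43 tags, had a ratio of 1.28 (0.801 to 2.05) and was not called.

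The lower genes were Acvr1b with 90 wild-type and 58 knock-out tags (0.689, 0.487 to 0.969), Bmpr2 with 235 and 155 (0.705, 0.572 to 0.868), Smad4 with 135 and 91 (0.721, 0.547 to 0.948) and Smurf2 with 189 and 139 (0.787, 0.627 to 0.984). The input held 130 tags in Acvr1b and 148 in Smad4. Neither gene held a deposited site. Smad3 was no longer called with the correction for G and C content (1.18, 0.994 to 1.41). With the gene body alone Acvr1b (0.787, 0.542 to 1.14), Smad4 (0.756, 0.563 to 1.01) and Smurf2 (0.817, 0.649 to 1.03) were not called. The call of Acvr1b was also lost when any single run of the wild-type ChIP was left out (0.705 to 0.715), with every unique tag counted (0.828) and with tags mapped without mismatch (0.710). Each call compares 1 library with 1 library.

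**Figure D5:**
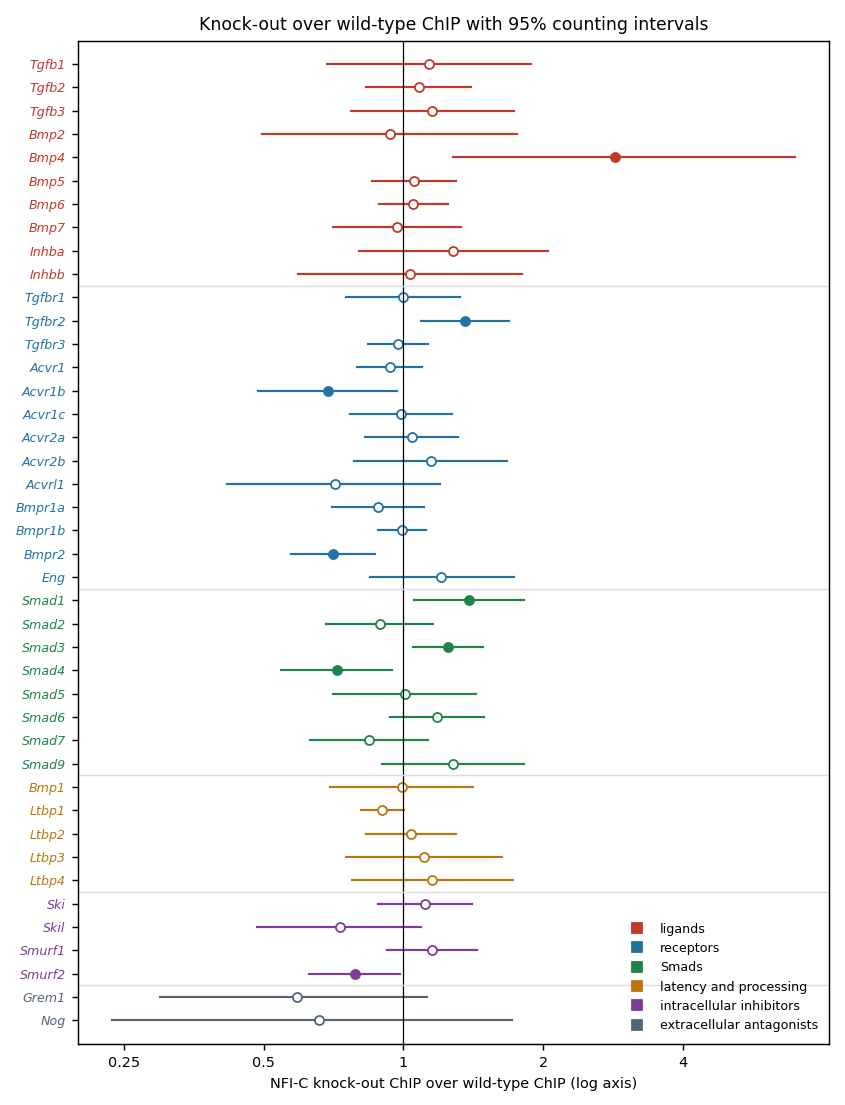
Ratio of knock-out to wild-type NFI ChIP for each gene with 95% counting intervals on a log axis. Filled points are the 8 genes called, 4 higher and 4 lower, and open points the other 34.

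Against the input, the knock-out ChIP had a ratio of 0.907 (0.876 to 0.938) over the genes and 0.906 over all genes. It called only Bmp5 higher, beside 3.44% of all genes, and 17 genes lower, beside 24%. The 3 comparisons share libraries and are given side by side. With correction for G and C content the ratio was 1.07 (1.04 to 1.11), against 0.988 over all genes. It then called 6 genes higher, beside 5.106% of all genes, and 1 lower, beside 7.878%. Bmp5 (1.23, 1.00 to 1.51) was not called after the correction (1.07, 0.873 to 1.32).

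A wider list of 50 pathway genes, among them further ligands, antagonists, matrix proteins and target genes, was read in the same way. At least 1 site lay in 28 of them (56%), beside 41.9% of all protein-coding genes. Their 82 sites came to 4.01 per 100 kb (3.19 to 4.98), beside 2.10 over all genes and 3.06 over the 42 genes. These genes were short, with a median of 16.6 kb. The highest numbers of sites on this list were 14 in Bmper, a secreted BMP modulator, and 12 in Fbn1, which encodes the microfibril protein fibrillin. The ratio of wild-type ChIP to input was 0.902 (0.863 to 0.942), and turned to 1.12 (1.08 to 1.17) with correction for G and C content. The ratio of knock-out to wild-type ChIP was 0.919 (0.876 to 0.965), and 0.904 (0.861 to 0.949) after correction. Id4 was called higher there, and Itgav and Mstn were among the genes called lower, with 1 of the 50 genes higher and 3 lower in all, beside 5.4% and 4.61%. After correction 0 of the 50 were called higher, beside 4.426% of all genes, and 4 lower, beside 5.226%.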

How the data were processed

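ChIP-Seq reads from 3 libraries, 1 per condition, were used. The authors mapped them with ELAND to mm9 and deposited each read with its match counts, position and strand, without normalization. They also deposited in vivo sites called with ChIP-peak on the wild-type ChIP, and regions of histone marks and lamina domains with their boundaries. Other deposited tables were not used here.

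Uniquely mapped tags were counted by their start, and repeats of a position and strand were counted as 1 tag. Genes were taken from GENCODE vM1 on NCBI build 37, the same assembly as mm9. Ratios were scaled by total tags, with exact (Clopper-Pearson) binomial intervals at 95%, and site densities with exact Poisson intervals. PCR copies are not independent molecules, so intervals cover counting error only. A call needed a fold of at least 1.2 and an interval without 1. No test across samples was possible with 1 library per condition. For correction of G and C content, expected tags were set per 1 kb bin. Wild-type and input tags were also simulated over 21987 genes, with 100 genes changed per fold, drawn only from genes above a minimum of tags. Of these, 70% with a 1.5-fold difference and 99% with a fold of 2 were called. Of the unchanged genes 1.671% were called higher and 1.657% lower. The simulation held counting error alone, without an effect of G and C content. Among the real genes 25.1% were called lower, so these rates do not carry over to the data.

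Members and lists were chosen with earlier results of these data known. Values in all libraries are given for genes with a site and for the 3 highest and 3 lowest ratios among genes with at least 30 tags in both libraries. Named single sites were upstream sites, the 6 with the most wild-type tags and fewer than 5 input tags (ties broken by more knock-out tags, then position), and those with a palindrome, and any other was named after its values were seen. Alternatives covered tag counting, runs, scaling, window, G and C content and site selection. Runs were told apart by read names, which gave 3 in each ChIP library and 2 in the input. The labels give 3 channels for each sample and do not name runs. Python 3.11.15, NumPy 2.4.6, SciPy 1.17.1 and pandas 2.3.3 were used. The values of 1 gene of the wider pathway list are not reported here.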

Additional observations from a re-analysis of the deposited data

How the results depend on the processing

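No paired analysis was possible because each condition had 1 library. Of 148 checks of the summary values, 114 stayed within the counting interval of the value given (counts within 1.5 times), 29 moved and 5 turned a direction whose interval left out 1. Ratios whose interval held 1 also crossed 1. Knock-out over wild-type in the genes (0.995) ranged from 0.976 to 1.02, and knock-out over input at sites was 0.955 with every unique tag counted. The settings that left out both UTR sites, Smad3 with Smad7, or Ltbp1 were chosen after seeing the data. With correction for G and C content, wild-type ChIP over input became 1.10 in the genes (9 higher, 3 lower) and 1.198 in the 5 kb upstream. Smads over receptors went from 0.848 to 1.07 with an interval that holds 1. Ligands over receptors moved from 0.782 (0.707 to 0.866) to 0.930 (0.840 to 1.03), where the interval also holds 1. Knock-out ChIP over input became 1.07 (6 higher, 1 lower). The same correction turned wild-type ChIP over input to 1.13 in Acvr2b, 1.25 in Bmp2, 1.04 in Bmp7, 1.64 in Inhbb, 1.07 in Ltbp2, 1.43 in Ltbp3, 1.39 in Nog, 1.22 in Ski, 1.195 in Smad6, 1.04 in Smurf1 and 1.09 in Tgfb1, and knock-out ChIP over input to 1.23 in Acvr2b, 1.12 in Bmp2, 1.54 in Inhbb, 1.05 in Ltbp2, 1.41 in Ltbp3, 1.28 in Ski, 1.04 in Skil, 1.38 in Smad7 and 1.15 in Tgfb1. With the median of all genes set to 1, wild-type ChIP over input was 1.01 with 6 genes higher and 13 lower (beside 8.253% and 17.82% of all genes), and knock-out ChIP over input 0.997 with 4 higher and 10 lower (7.274% and 17.36%). With gene bodies alone these ratios were 0.944 and 0.946, the knock-out over input had 2 higher (3.152%), and 1 gene was lower in the knock-out than in the wild-type ChIP (4.033%). With every unique tag counted, 5 genes were higher and 25 lower in wild-type ChIP over input (10.98% and 37.36%), 4 were higher in knock-out over input (11.27%), knock-out over wild-type had 12 higher and 8 lower (23.22% and 16.63%), and ligands over receptors was 0.702. By fold alone, 7 were higher and 8 lower in knock-out over wild-type (27.53% and 26.56%). Without tags at deposited sites 1 gene stayed higher in wild-type ChIP over input (3.013%), and the 1 kb upstream gave 0.250. Sites with at least 5 wild-type tags in unshifted 300 bp windows numbered 0.466 per 100 kb in 11 genes (0.239 per 100 kb and 9.56% of all genes). In shifted 600 bp windows 104 of the 105 sites held at least 5. The palindrome with at most 1 mismatch numbered 0.233 per 100 kb. The knock-out over input at sites was 1.81 with fewer than 5 input tags and 1.35 without the UTR sites. H3K27me3 regions covered at least 50% of 21 genes, a share that was not counted over all genes, so it cannot be set against them. H3K36me3 regions covered the start of 19 (37.3% of all genes). The cause of these shifts was not tested, apart from what each setting itself changes. At a median of 3 wild-type tags in 300 bp and 6 in shifted 600 bp windows, depth limits every comparison of single sites.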
